A study of Homo sapiens with 4 samples.

Results

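The genes described here are 10 members of the NF-kB pathway, of 60617 genes in the deposited table and 17309 that passed the filter on low counts. They were chosen as a list of symbols and comprise the transcription factor subunits NFKB1, NFKB2, RELA and RELB, the feedback inhibitors NFKBIA, NFKBIE and TNFAIP3, the receptor adaptors TRAF1 and BIRC3, and the adhesion molecule ICAM1. Each symbol matched 1 Ensembl ID, and all 10 genes passed the filter. RNA-seq was done on A673, an established human Ewing sarcoma cell line that carries the EWSR1-FLI1 fusion and lacks functional p53. One group of 2 libraries came from cells given CBL0137 at 1 µM for 24 h, and the other group of 2 libraries came from cells given its solvent DMSO for the same time. CBL0137 belongs to the curaxins, compounds that bind DNA and trap FACT, a histone chaperone, on chromatin. All 4 libraries come from this single cell line at 1 dose and 1 time. The origin of the replicates, from 1 culture or several, was not given in the sources used here. Thus p-values reflect the spread of these libraries alone, and that spread may be technical.

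NF-kB factors are dimers of related subunits. They are held in the cytoplasm by IkB proteins until a receptor, such as that of tumour necrosis factor (TNF) or of interleukin 1, activates the IkB kinases. Freed dimers enter the nucleus and bind kB sites in the DNA of their targets, among which are their own inhibitors, so that the signal limits itself. The question taken up here is whether the transcripts of the feedback inhibitors moved with those of the targets ICAM1 and TRAF1 under a compound of a class that has been described as reducing NF-kB-dependent transcription.

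Such sites are often sought in the DNA just before the start of a gene. The 250 bases upstream of 4 members are shown because these genes carry the contrast between the targets that rose and the inhibitors that did not. The sequences are from RefSeq on GRCh38.p14, read 5′ to 3′ on the strand of the gene. Capitals mark every match, on either strand, to the published degenerate kB consensus or to the shorter pattern GGNNNTTCC. TRAF1 has 3 annotated starts in that table, and the outermost is shown.
ICAM1 (chr19:10270870-10271119, plus strand): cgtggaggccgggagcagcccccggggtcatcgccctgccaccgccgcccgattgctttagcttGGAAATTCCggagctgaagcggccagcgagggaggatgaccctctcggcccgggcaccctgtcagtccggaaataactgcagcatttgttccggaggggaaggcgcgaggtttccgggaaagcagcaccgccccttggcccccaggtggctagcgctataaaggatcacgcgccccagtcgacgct
TRAF1 (chr9:120929172-120929421, minus strand): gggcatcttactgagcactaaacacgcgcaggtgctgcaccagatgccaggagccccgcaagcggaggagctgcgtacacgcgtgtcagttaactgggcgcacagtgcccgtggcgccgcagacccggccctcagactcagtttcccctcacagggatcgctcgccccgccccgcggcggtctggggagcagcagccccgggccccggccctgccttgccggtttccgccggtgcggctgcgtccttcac
NFKBIA (chr14:35404750-35404999, minus strand): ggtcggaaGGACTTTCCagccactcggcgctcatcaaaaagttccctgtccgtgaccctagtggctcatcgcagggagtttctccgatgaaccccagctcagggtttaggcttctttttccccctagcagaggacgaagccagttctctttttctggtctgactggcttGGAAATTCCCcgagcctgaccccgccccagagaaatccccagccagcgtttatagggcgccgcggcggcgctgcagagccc
TNFAIP3 (chr6:137867009-137867258, plus strand): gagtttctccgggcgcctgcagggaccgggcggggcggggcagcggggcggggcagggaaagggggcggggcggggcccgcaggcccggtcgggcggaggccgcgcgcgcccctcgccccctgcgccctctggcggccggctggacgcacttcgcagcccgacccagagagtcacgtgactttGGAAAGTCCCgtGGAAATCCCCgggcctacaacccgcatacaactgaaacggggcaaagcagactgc

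These patterns were searched on both strands in windows from 250 bases before to 50 bases after each start. A window was found for 8 of the 10 members, and RELB and NFKBIE had no entry. The kB consensus was present for 5 of the 8, namely NFKB1, NFKB2, NFKBIA, TNFAIP3 and BIRC3, against 13.3% of all 27305 genes with a window. GGNNNTTCC was present for 7 of the 8, all but RELA, against 23.5% of those genes. The 2 patterns can overlap, as at NFKBIA, where both match from 81 bases before the start. ICAM1 had a match to GGNNNTTCC only, 186 bases before its start. TRAF1 had no match upstream of any of its 3 starts, and its only matches were to GGNNNTTCC within the 50 bases after 2 of them. A match is a description of letters, and no binding was measured here.

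ICAM1 and TRAF1 rose after CBL0137, and the other 8 members were not called. To be called, a gene needed a fold change above 1.5 and, in edgeR's quasi-likelihood test, an adjusted p under 0.05 (Benjamini-Hochberg, over all genes tested). By this rule 2 members rose and 0 fell, also with DESeq2 and limma-voom, against 6.88% of all genes tested that rose, 2.73% that fell and 9.61% that were called either way. At an unadjusted p under 0.05, 4 members were higher and 3 lower, against 22% and 22.8% of all genes tested (44.8% either way). The median log2 fold change was 0.05 over the 10 members and 0.003 over all genes tested. The libraries of the 2 conditions did not overlap for 8 members, 5 of them higher and 3 lower in CBL0137, while 66.9% of all genes tested also showed no overlap. The 95% interval of the fold change lay wholly inside the 1.5-fold limits for 8 of the 10 members, against 57.1% of all genes tested. Both shares include called genes, and these 8 are the members that were not called.

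**Figure D1:**
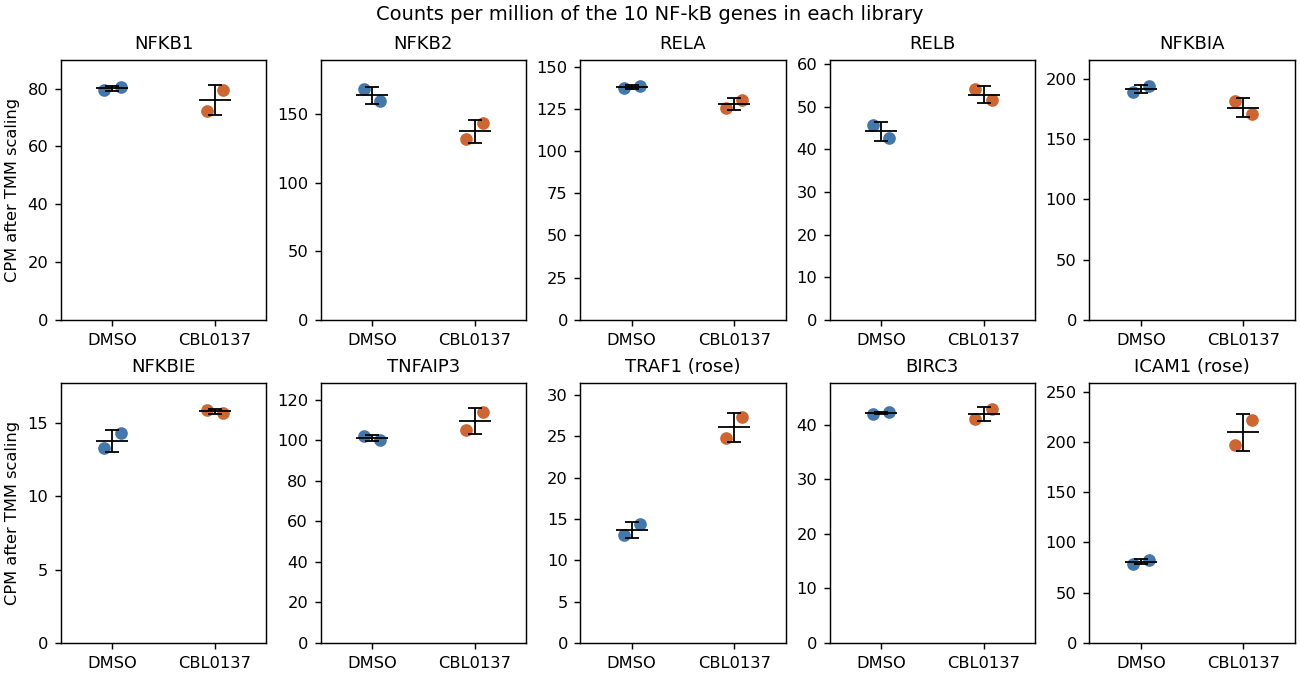
Counts scaled to library size (CPM) after TMM factors, on axes that start at 0, for each of the 10 genes in DMSO (blue) and CBL0137 (orange), with 1 point per library, the mean as a horizontal bar and the SD as an error bar (n = 2). ICAM1 moved from 79.0 and 82.3 to 197 and 222 CPM, while NFKBIA stayed between 171 and 194 CPM in all 4 libraries.

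ICAM1, a cell surface adhesion molecule that binds leukocyte integrins, showed the largest change of the 10. ICAM1 (ENSG00000090339, chromosome 19, 10381769 to 10397291 in GRCh37) measured 79.0 and 82.3 CPM in DMSO replicates 1 and 2 and 197 and 222 CPM in CBL0137 replicates 1 and 2. Both treated libraries stood far above both controls, and the higher treated library exceeded the lower by more than the controls differed from each other. The log2 fold change was 1.38 ± 0.05 (SE), a 2.60-fold rise with a 95% interval of 2.41 to 2.80 and an edgeR adjusted p of 2.26e-16. Only 1.99% of the genes tested had a higher log2 fold change. In its 3448 exonic bases, 815 are shared with the antisense gene ICAM4-AS1, and the labels do not say whether counting used strand. ICAM4-AS1 had 2, 0, 0 and 1 counts in the 4 libraries, in the order DMSO replicates 1 and 2 and CBL0137 replicates 1 and 2, and LIMASI, a further antisense gene, had 0 in each. Counts alone do not show the level of these genes. The deposited FPKM in the same order was 0.319, 0.346, 0.532 and 0.391 for ICAM4-AS1. For LIMASI it was 0.0456, 0.0896, 0.0320 and 0.0252, and for ICAM1 it ran from 27.2 to 82.2. The part of antisense reads in the change of ICAM1 was not tested. The deposited FPKM of ICAM1 itself gave the same order of libraries as its counts.

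The genes around ICAM1 were not called. ICAM5, an ICAM relative expressed mainly in neurons that lies downstream of it, measured 55.9 and 53.3 CPM in DMSO and 47.0 and 46.8 CPM in CBL0137, with a log2 fold change of -0.22 ± 0.06. Of 9 genes beside ICAM1 on chromosome 19, 6 were tested and 0 were called with edgeR, limma-voom or DESeq2. In edgeR 4 of them were lower at an unadjusted p under 0.05 and 3 at an adjusted p under 0.05 (ICAM5, MRPL4 at -0.23 ± 0.07 and TYK2 at -0.14 ± 0.04). RAVER1 (-0.15 ± 0.06), S1PR2 (0.17 ± 0.11) and ZGLP1 (0.22 ± 0.46) gave the other log2 fold changes. Among all genes tested, 22.8% were lower at the unadjusted limit and 3292 of 17309 at the adjusted one. ICAM4 had a count of 0 in each library but a deposited FPKM of 3.12 and 3.74 in DMSO and 2.99 and 3.18 in CBL0137. ICAM3 (0.935 to 1.70 FPKM) and FDX2 (6.10 to 9.61 FPKM) had at most 3 counts, so none of these 3 genes could be tested on counts. The counts and FPKM differ in this way in other places of the table too: of 28025 genes at 0 counts in all libraries, 797 had at least 1 FPKM in each. ICAM2, a relative found on blood vessel cells, was weakly counted, at 32, 28, 33 and 21 reads in the same order of libraries. ICAM1 was called by edgeR, and the tested family genes ICAM2 and ICAM5 were not.

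TRAF1 is an adaptor that joins TNF receptor complexes and is itself a target of NF-kB. TRAF1 (ENSG00000056558, chromosome 9, 123664671 to 123691451) measured 13.0 and 14.4 CPM in DMSO and 24.9 and 27.3 CPM in CBL0137. The treated libraries again lay above both controls, at a level at which 298 to 633 reads were counted per library. The log2 fold change was 0.93 ± 0.09, a 1.90-fold rise with a 95% interval of 1.66 to 2.18 and an adjusted p of 1.71e-08. A higher log2 fold change was seen in 5.40% of the genes tested. Of the 4 genes beside TRAF1, 0 were called with edgeR, limma-voom or DESeq2, while 3 were lower in edgeR at an adjusted and at an unadjusted p under 0.05: PHF19 (-0.44 ± 0.06), CNTRL (-0.36 ± 0.05) and the complement gene C5 (-0.56 ± 0.09). PSMD5 gave 0.05 ± 0.05. Among all genes tested, 22.8% were lower at the unadjusted limit and 3292 of 17309 at the adjusted one.

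BIRC3 encodes a ubiquitin ligase that TRAF proteins bring to TNF receptors, and its transcript is also induced by NF-kB. BIRC3 (chromosome 11, 102188215 to 102210134) measured 42.0 and 42.3 CPM in DMSO and 41.0 and 42.8 CPM in CBL0137. The conditions overlapped. Its log2 fold change was -0.01 ± 0.06 with a 95% interval of -0.14 to 0.12, and it turned positive when libraries were scaled by upper quartiles (0.04) or by library size alone (0.05). The 2 adaptors therefore gave different values, 0.93 for TRAF1 and -0.01 for BIRC3.

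None of the 3 feedback inhibitors was called with edgeR, limma-voom or DESeq2, and at an unadjusted p under 0.05 in edgeR TNFAIP3 was higher and NFKBIA lower. NFKBIA encodes IkB alpha, which is rebuilt after each NF-kB pulse and carries dimers out of the nucleus. NFKBIA (chromosome 14, 35870285 to 35873955) measured 189.7 and 194 CPM in DMSO and 182 and 171 CPM in CBL0137. Both treated libraries lay below both controls by a small margin. Its log2 fold change was -0.12 ± 0.04 with a 95% interval of -0.21 to -0.04 and an adjusted p of 0.0211, so it passed the p limit and not the fold limit. Passing the p limit depended on the setting. The adjusted p was 0.157 in edgeR with upper-quartile factors, 0.256 with library size alone and 0.0642 with DESeq2.

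NFKBIE, which encodes the related inhibitor IkB epsilon, and TNFAIP3, which encodes a ubiquitin-editing enzyme that shuts off signalling at the receptor, lay slightly higher in CBL0137. NFKBIE (chromosome 6, 44225903 to 44233525) measured 13.3 and 14.3 CPM in DMSO and 15.9 and 15.7 CPM in CBL0137, from 303 to 363 reads per library. Its log2 fold change was 0.20 ± 0.10 (adjusted p = 0.139), and the conditions did not overlap. TNFAIP3 (chromosome 6, 138188351 to 138204451) measured 102 and 100.3 CPM in DMSO and 105 and 114 CPM in CBL0137, a log2 fold change of 0.11 ± 0.05 (adjusted p = 0.0722). Its conditions did not overlap in CPM but did in FPKM. Neither passed the p limit in this fit, and their 95% intervals reached no further than 0.41 for NFKBIE and 0.21 for TNFAIP3. In edgeR TNFAIP3 passed the p limit with upper-quartile factors (adjusted p = 0.00661) and with a filter of 1 CPM (0.0368). Both genes passed it with library size alone (0.0479 for NFKBIE, 0.00317 for TNFAIP3), and neither did with DESeq2 (0.463 and 0.282). The antisense gene WAKMAR2 shares 95 of the exonic bases of TNFAIP3. It had 32 and 23 reads in DMSO and 55 and 52 reads in CBL0137, against 2208 to 2640 reads for TNFAIP3. By the calling rule WAKMAR2 rose in edgeR, with a log2 fold change of 0.998 (adjusted p = 0.00909).

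**Figure D2:**
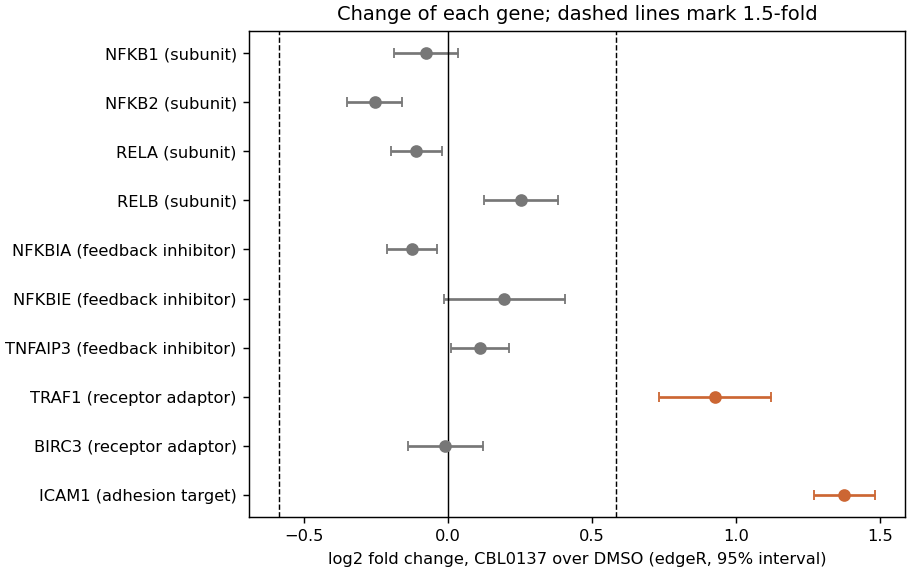
Log2 fold change of CBL0137 over DMSO for each of the 10 genes, with its 95% interval from edgeR, a solid line at 0 and dashed lines at the 1.5-fold limits. ICAM1 (1.38) and TRAF1 (0.93) lie beyond the upper limit, and the other 8 intervals lie between the limits.

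None of the 4 subunits was called with edgeR, limma-voom or DESeq2, and their log2 fold changes ran from -0.25 to 0.26. At an unadjusted p under 0.05, where 44.8% of all genes tested pass, 1 was higher and 2 were lower. NFKB2, whose precursor protein both inhibits RELB and gives rise to its partner, measured 168 and 159 CPM in DMSO and 132 and 143 CPM in CBL0137 (chromosome 10, 104153867 to 104162281). Its log2 fold change was -0.25 ± 0.05 (adjusted p = 9.36e-05), below the fold limit. RELB, the subunit of the non-canonical branch, measured 45.7 and 42.6 CPM in DMSO and 54.1 and 51.4 CPM in CBL0137 (chromosome 19, 45504719 to 45541450), with a log2 fold change of 0.26 ± 0.06 (adjusted p = 0.00203). The libraries of the 2 conditions did not overlap for either gene, NFKB2 being the lower and RELB the higher in CBL0137. The deposited FPKM (fragments per kilobase of gene, scaled to depth) of RELB was 0.415 and 0.378 times that of NFKB2 in the DMSO libraries and 0.591 and 0.528 times in the CBL0137 libraries.

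RELA and NFKB1 form the best known NF-kB dimer, in which RELA carries the activation domain. RELA (chromosome 11, 65421070 to 65430561) measured 137 and 139 CPM in DMSO and 126 and 130.4 CPM in CBL0137, a log2 fold change of -0.11 ± 0.04 (adjusted p = 0.0516). NFKB1 (chromosome 4, 103422487 to 103538459) measured 79.4 and 80.7 CPM in DMSO and 72.2 and 79.6 CPM in CBL0137, a log2 fold change of -0.07 ± 0.05 (adjusted p = 0.301). The conditions overlapped for NFKB1 and not for RELA. The FPKM of RELA was 2.90 and 2.78 times that of NFKB1 in DMSO and 2.80 and 2.83 times in CBL0137, so this ratio varied as much within DMSO as between conditions. Counted at an adjusted p under 0.05 with no fold limit, 3 members were higher (RELB, TRAF1 and ICAM1) and 2 lower (NFKB2 and NFKBIA), which is 5 of 10 against 36.5% of all genes tested.

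Compared per unit of length, ICAM1 changed its place among the members. In DMSO the order of deposited FPKM from high to low was NFKBIA, RELA, NFKB2, ICAM1, TNFAIP3, NFKB1, RELB, BIRC3, NFKBIE and TRAF1. Neighbours in this order did not overlap, except NFKB1 (12.9 and 13.1 FPKM) and RELB (13.6 and 12.3 FPKM). ICAM1 stood at 27.2 and 27.8 FPKM in DMSO and at 72.4 and 82.2 FPKM in CBL0137. NFKBIA stood at 79.5 and 80.4 FPKM in DMSO and 78.6 and 74.5 FPKM in CBL0137, so the 2 genes, separate in DMSO, overlapped after treatment. TRAF1, the lowest in DMSO at 1.92 and 2.08 FPKM, reached 3.76 and 4.18 FPKM in CBL0137 and overlapped there with BIRC3 (3.98 and 4.38 FPKM), which in turn overlapped with NFKBIE (4.25 and 4.15 FPKM).

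**Figure D3:**
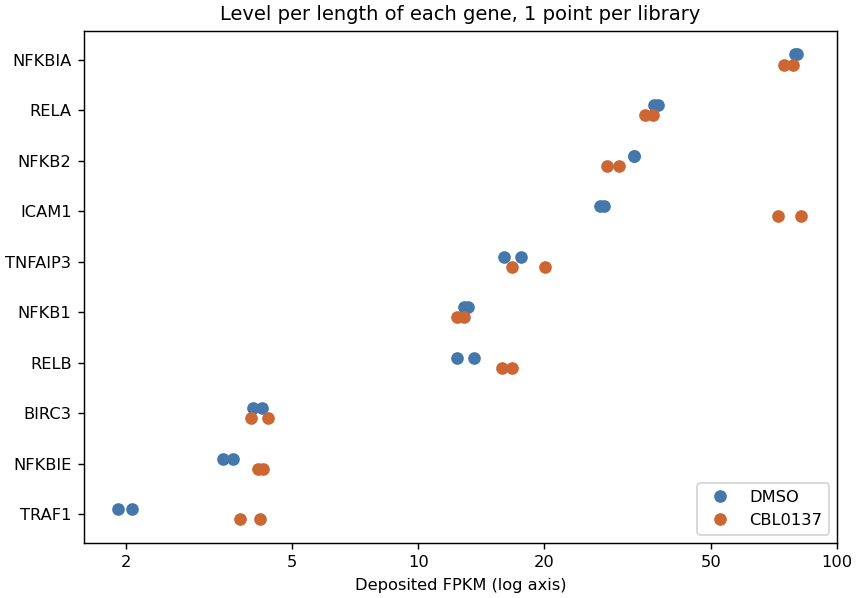
Deposited FPKM of the 10 genes on a log axis, with 1 point per library, DMSO in blue and CBL0137 in orange, and genes ordered by their DMSO mean. ICAM1 moves from below NFKB2, at 27.2 and 27.8 FPKM to the level of NFKBIA, and TRAF1 from 1.92 and 2.08 FPKM to the level of BIRC3 and NFKBIE.

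The targets were then set against the inhibitors within each library, where the scaling between libraries cancels. The mean log2 CPM of ICAM1 and TRAF1 minus that of NFKBIA, NFKBIE and TNFAIP3 was -0.99 and -0.92 in DMSO and 0.06 and 0.21 in CBL0137. Its mean rose from -0.96 ± 0.04 to 0.13 ± 0.11 (SD, n = 2), a shift of 1.09 on the log2 scale or 2.13-fold. The 2 targets are the members called as rises above, so this shift restates their values and is no separate evidence. BIRC3, whose transcript is also induced by NF-kB, was not among the targets (log2 fold change -0.01). All treated libraries lay above all controls in the 6 single pairs of a target and an inhibitor, which share their genes. An exact two-sided permutation test over the libraries gave p = 0.333 for the combined contrast and for each of the 6 pairs, also after Benjamini-Hochberg adjustment over the pairs. That is the smallest p that 2 libraries against 2 allow, so the shift is a description.

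The shift was largest for ICAM1 against NFKBIA and smallest for TRAF1 against NFKBIE. The log2 ratio of ICAM1 to NFKBIA was -1.26 and -1.24 in DMSO and 0.11 and 0.38 in CBL0137, a shift of 1.50. ICAM1 shifted by 1.18 against NFKBIE and by 1.26 against TNFAIP3. TRAF1 shifted by 1.05 against NFKBIA, 0.73 against NFKBIE and 0.82 against TNFAIP3. With the edgeR standard errors of both genes taken as independent, the standard error of these differences ran from 0.07 for ICAM1 against NFKBIA to 0.14 for TRAF1 against NFKBIE. ICAM1 also moved more than TRAF1, by 0.45 ± 0.11 on the same scale.

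**Figure D4:**
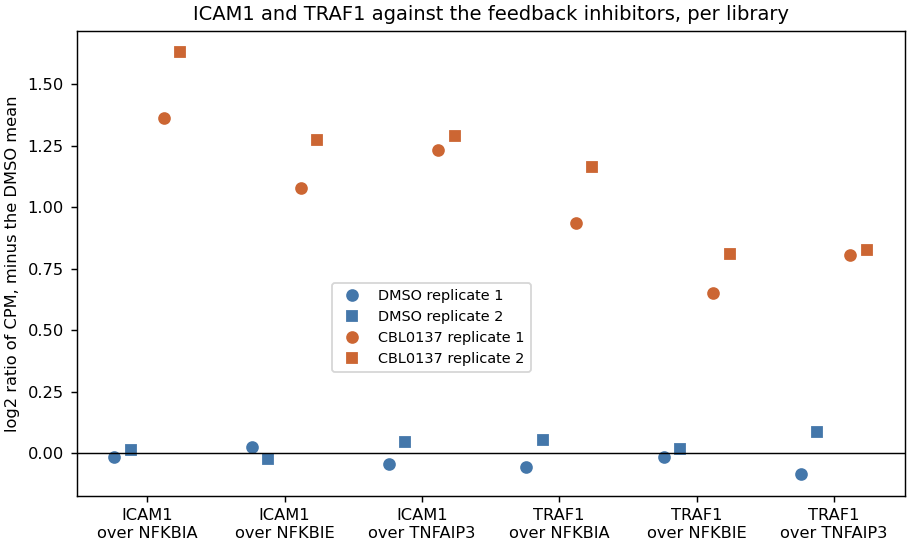
Log2 ratio of CPM of ICAM1 or TRAF1 to each of the 3 feedback inhibitors in each library, minus the mean of the 2 DMSO libraries, so that 0 is the DMSO mean. The CBL0137 points (orange) lie above the DMSO points (blue) in all 6 pairs, with mean shifts from 0.73 to 1.50.

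Other genes of the pathway were counted in the same fit. Of 99 such genes, 89 were tested, 13 rose, 1 fell and 75 were not called, with a median log2 fold change of 0.15. That is 15.7% called, against 9.61% of all genes tested. DESeq2 called 10 rises and 1 fall among them, against 6.2% of all genes to which it gave an adjusted p. The rises were mostly in the lists of targets and ligands, with 10 of 34 and 2 of 8 tested genes.

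None of the 5 other subunits and atypical IkB proteins was called with edgeR, limma-voom or DESeq2, and at an unadjusted p under 0.05 in edgeR 1 was lower. NFKBIB, which encodes IkB beta, measured -0.23 ± 0.06 on the log2 scale (adjusted p = 0.0046), in the same direction as NFKBIA. BCL3, a nuclear cofactor of the IkB family, gave 0.15 ± 0.08 and NFKBID 0.23 ± 0.14. Of 13 other negative regulators, 0 were called with edgeR, limma-voom or DESeq2, and 2 were higher and 2 lower at an unadjusted p under 0.05 in edgeR, with 1 higher (TAX1BP1, 0.18 ± 0.05) and 2 lower (COMMD1, -0.41 ± 0.10, and TNIP2, -0.16 ± 0.06) at an adjusted p under 0.05. Among all genes tested, 22% were higher and 22.8% lower at that unadjusted limit, and 3022 and 3292 of 17309 at the adjusted one. The median log2 fold change of those 13 genes was 0.03. The median of the 3 feedback inhibitors was 0.11, and no test compared these groups.

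Of 17 kinases and ubiquitin ligases of the cascade, IKBKE rose, 0 fell and 16 were not called. IKBKE, an inducible kinase related to the IkB kinases, measured 14.7 and 13.0 CPM in DMSO and 23.5 and 25.7 CPM in CBL0137, a log2 fold change of 0.83 ± 0.10 (adjusted p = 1.72e-07). The IkB kinase IKBKB (0.33 ± 0.06), IRAK1 of the interleukin 1 receptor branch (0.23 ± 0.04) and RIPK1 of the TNF receptor complex (0.34 ± 0.08) stayed below the fold limit. Of 18 receptors and adaptors, 16 were tested, 0 rose and TLR3 fell. TLR3, a receptor for double-stranded RNA, had 69 and 66 reads in DMSO and 24 and 33 reads in CBL0137, a log2 fold change of -1.20 ± 0.27 (adjusted p = 0.00101). The receptors CD40 (0.46 ± 0.06), TNFRSF12A (0.55 ± 0.09) and TNFRSF1A (0.22 ± 0.05) were higher at an adjusted p under 0.05 and below the fold limit. In edgeR 7 genes of this list were higher and 3 lower at that p limit, and 7 and 4 at an unadjusted p under 0.05. Of all 17309 genes tested, 3022 were higher and 3292 lower at the adjusted limit, and 22% and 22.8% at the unadjusted one.

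Of 12 ligands, 8 were tested, of which 2 rose and 0 fell. IL1B, an inflammatory cytokine, rose from 15.4 and 16.9 CPM in DMSO to 37.7 and 36.6 CPM in CBL0137 (1.20 ± 0.08, adjusted p = 1.33e-11). IL33, a nuclear cytokine of the same family, rose from 21.2 and 19.7 to 35.1 and 36.0 CPM (0.80 ± 0.08). IL1A gave 0.56 ± 0.07, just under the fold limit, and TNFSF14 gave 1.14 ± 0.53 (adjusted p = 0.0977). TNF, a main activator of the pathway, gave 0.47 ± 0.18 (adjusted p = 0.0409) at 81 to 121 reads per library.

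Of 38 other NF-kB targets, 34 were tested, and 10 rose, 0 fell and 24 were not called, with a median of 0.24. MMP9, a matrix-degrading protease, rose from 66.3 and 71.6 CPM to 198 and 219 CPM (1.60 ± 0.05, adjusted p = 2.9e-17), where ICAM1 gave 1.38 ± 0.05. The monocyte attractant CCL2 (0.81 ± 0.06), the macrophage growth factor CSF1 (0.74 ± 0.08) and VCAM1, an adhesion molecule that like ICAM1 binds leukocyte integrins (0.71 ± 0.08), rose as well. PLAU, the urokinase protease (0.66 ± 0.10), and TGM2, a protein-crosslinking enzyme (0.67 ± 0.16), rose, and both lost their call without DMSO replicate 1 (0.50 and 0.51). TGM2 lost it also without CBL0137 replicate 2 (0.40). Without DMSO replicate 1, 6 targets were called, and with all libraries DESeq2 called 7. The other 2 rises, named after their values were seen, were CCL5 and LIF, each with 57 or fewer reads per library and each lost when either DMSO library was left out. The adhesion molecule SELE had 4 and 2 reads in DMSO and 39 and 28 in CBL0137, and CX3CL1, a membrane-bound chemokine, had 7 and 14 reads and then 59 and 75, so that their folds rest on few control reads. TNFAIP2 (0.37 ± 0.05), CFLAR, an inhibitor of caspase 8 activation (0.34 ± 0.05), and CD44 (0.45 ± 0.08) stayed below the fold limit.

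**Figure D5:**
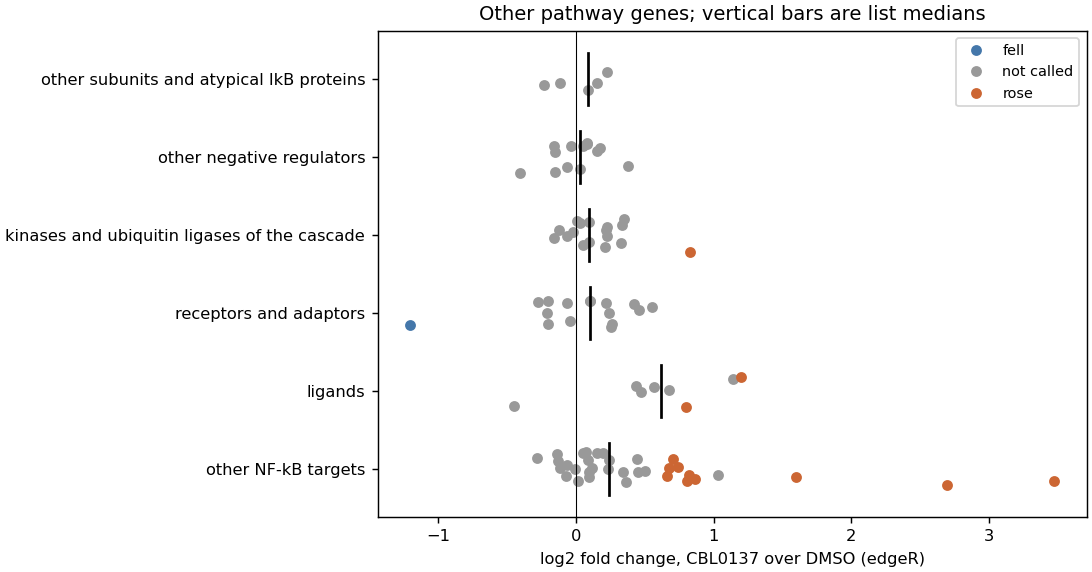
Log2 fold change of CBL0137 over DMSO (edgeR) for the tested genes of 6 lists of other pathway genes, with 1 point per gene, spread vertically for visibility, orange for genes that rose, blue for the 1 that fell and grey for those not called. Black bars are list medians, which run from 0.03 for the other negative regulators to 0.62 for the ligands.

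The libraries held 20483714 to 23373554 gene counts each, and replicates of a condition were not identical, their counts differing beyond sampling noise (chi-square over its degrees of freedom 2.07 for DMSO, 2.57 for CBL0137). All 12 Ewing sarcoma markers were tested, with 234 to 68516 reads per library, and GLI1 rose (0.60), a call lost without DMSO replicate 1 (0.53) or CBL0137 replicate 2 (0.52). At an adjusted p under 0.05 in edgeR with no fold limit, 4 of these markers were higher and 3 lower. Of all 17309 genes tested, 3022 were higher and 3292 lower at that limit. Because ICAM1, VCAM1 and SELE are also made by vessel cells and MMP9 and IL1B by white blood cells, markers of those cells were measured. Of 7 endothelial markers with an ID, 4 were tested, and CDH5 rose, from 4 and 3 reads to 19 and 17 (a call lost without DMSO replicate 2, adjusted p = 0.0523), while VWF and TEK had at most 1 read in each library. The summed level of those 7 was 11.8 to 13.3 CPM in DMSO and 13.5 to 16.4 CPM in CBL0137. Of 10 white blood cell markers, 5 were tested and ITGAM rose (0.72 ± 0.18), while CD3E had 0 reads and PTPRC 1, 1, 0 and 0. CD68 had 0, 1, 1 and 0 counts but a deposited FPKM of 5.99 to 9.74, so its count does not show its level. The summed level of the white blood cell markers on counts was 99.1 to 109 CPM in DMSO and 109.2 to 116 CPM in CBL0137, most of it from ITGB2. At an unadjusted p under 0.05 in edgeR, 2 of 5 tested white blood cell markers and 2 of 4 tested endothelial markers were higher. At that limit 0 of either list were lower, against 22% higher and 22.8% lower among all genes tested. DESeq2 called 1 white blood cell marker and 0 endothelial markers. Of 6 epithelial markers, CLDN4 was tested and not called, and their summed level was 1.24 to 1.84 CPM in DMSO and 1.52 to 1.81 CPM in CBL0137. Of the FACT subunits, SSRP1 gave -0.31 ± 0.03 and SUPT16H -0.04 ± 0.03, and neither was called. The part of these markers in the changes of ICAM1 and TRAF1 was not tested.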

How the data were processed

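RNA-seq of A673 cells was measured in 2 DMSO and 2 CBL0137 libraries, grouped by sample title. The authors' steps, per the submitters' processing notes, were trimming (Trim Galore), mapping (HISAT2) and HTSeq 0.11.1 for the deposited counts. These notes list mm10 beside hg19 without a role, and the series' design text gives hg19. The deposited FPKM were computed by the authors from gene length and depth, per the labels, by an unnamed tool. Strand, RNA selection and annotation release: not given in the sources used here. Of 60623 rows, 6 (5 HTSeq summary rows and 1 header row) stayed out of library sizes and tests, and the summary rows made up 23.7% to 24.8% of reads. IDs were matched to GENCODE release 44 lifted to GRCh37 (hg19), and 58524 were named. SOD2 and PECAM1 of the lists had no ID.

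The test was edgeR 4.0.16 in R 4.3.3 with TMM factors, filterByExpr (minimum count 10), a quasi-likelihood test and Benjamini-Hochberg adjustment over all genes. The SE is the log2 fold change divided by the square root of F. Tested on simulated data for this comparison (16917 genes), it recovered 77 of 98 genes set to 2-fold and 66 of 97 set to 1.6-fold, and it called 1 of 16722 left as they were. Alternatives used DESeq2 1.42.0, limma 3.58.1 (voom, and trend on log2(FPKM + 1) for FPKM of at least 1 in 2 libraries), other factors, filters and fold limits, a replicate block and each library left out. Tables used Python 3.11.15 with pandas 2.3.3.

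The members and lists were chosen with earlier results of these data known. Named are all members, up to 8 called and 3 uncalled genes of each pathway list by adjusted p, and all family and neighbouring genes.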

Additional observations from a re-analysis of the deposited data

How the results depend on the processing

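ICAM1 and TRAF1 were the only members called under 4 scalings (TMM, RLE, upper quartile, library size), with a filter of 1 CPM or none, DESeq2, limma-voom, limma-trend on log2(FPKM + 1), the replicate block and each library left out (2 in every such fit). With no fold limit 5 members passed, and above 2-fold 1 did, ICAM1. Leaving out 1 library at a time moved ICAM1 between 1.28 and 1.46 and TRAF1 between 0.85 and 0.99. The sign of BIRC3 turned under upper-quartile factors (0.040), library size alone (0.054), a filter of 1 CPM (0.0041), log2(FPKM + 1) (0.017) and without CBL0137 replicate 1 (0.018), and leaving out 1 library gave -0.042 to 0.018; the cause was not tested. Of 150 alternative values of the members, 141 kept direction and call. They include the settings with no fold limit and above 2-fold, which reuse the main fold changes and so cannot turn a sign. For a member below the 1.5-fold limit, an adjusted p that crossed 0.05 between scalings left the call unchanged, as for NFKBIA and TNFAIP3.

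The contrast of targets and inhibitors was 1.09, 1.00 on log2(FPKM + 1), 1.31 with ICAM1 as the only target, and 1.01 to 1.17 with a library left out. These are plain differences of means. In the edgeR fits with a library left out, the lone library of a condition is assumed to vary like the other condition. The count of genes called, 1663, was 923 with DESeq2, 577 on FPKM, 6314 with no fold limit and 736 above 2-fold, and 1343 to 1591 with a library left out. The companion pathway genes called, 14, became 9 on FPKM, 41 with no fold limit and 5 above 2-fold, and the other NF-kB targets called, 10, became 5, 17 and 3 in the same order, and 6 to 10 with a library left out. These companion counts were chosen after seeing the data. Above 2-fold, 5 of 89 tested companion genes were called against 736 of 17309 genes. With no fold limit it was 41 of 89 against 6314 of 17309, and on FPKM 9 of 77 against 577 of 14139. For the other NF-kB targets 34 genes were tested, and 29 on FPKM. The difference between these shares was not tested. CCL5 and LIF lost their calls under DESeq2 and without either DMSO library.

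Replicate numbers are shared across conditions, but the labels do not say that a number marks a shared batch, and the deviations of same-numbered libraries correlated at -0.0001 over 17309 genes. With the replicate number as a block, 1576 genes were called, and the contrast is 1.09 by construction, since a block cannot move it in this balanced layout. Power by read depth was not tested.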
